A study of Mus musculus with 6 samples.

Results

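The genes examined here are the neighbours of Elavl1 on mouse chromosome 8, in mice whose Elavl1 allele was flanked by loxP sites. They were chosen by position: every gene whose lower coordinate is below 8.0 Mb on chromosome 8 in the RefSeq annotation of GRCm38.p6 and is read by a probeset with a single gene symbol, Elavl1 itself (near 4.3 Mb) left out. This gave 38 genes of 22180 on the array, 35 of them protein-coding, and 27 were bright enough to be tested. The region holds 39 protein-coding RefSeq neighbours, and the remaining 4 (Pcp2, Map2k7, Tgfbr3l and Cd209f) were not analysed here because no probeset was listed under their symbol alone. Positions and distances here use the lower chromosome coordinate of each gene, whichever its strand. By this measure 30 of the 38 genes lie below Elavl1, from 1.13 Mb away, and 8 lie above it, up to 0.80 Mb away.

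The study profiled total brain RNA of mice in 6 samples, 1 Affymetrix Mouse Gene 2.0 ST array each. The 3 controls had the genotype Thy1Cre-ERT2-EYFPHuRf/+, with 1 floxed and 1 intact Elavl1 allele, and are labelled WT. The 3 knockouts had the genotype Thy1Cre-ERT2-EYFPHuRf/f, with both alleles floxed, and are labelled KO. All 6 samples came from mice with a tamoxifen-inducible Cre and the reporter EYFP, both driven by Thy1, a promoter active in neurons. The mice were given tamoxifen at 10 and 11 weeks of age and were 91 days old at sampling. Cells in which Thy1 is not active keep Elavl1, and the controls are not wild type at the locus. Nothing in the labels names single animals or litters, so the p-values below reflect how these 6 samples vary, which may in part be technical. The sex-linked genes given below differ within each group, so each group holds samples of both sexes. How many animals each group holds is not stated.

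Elavl1 encodes HuR, a widely made protein that binds AU-rich elements in mRNA and affects stability and translation. Genes that lie close to a targeted locus are inherited together with it, so a floxed chromosome passes on its own copies of the neighbouring genes. By genotype, knockouts carried that chromosomal segment on both chromosomes and controls on 1. The sources used here do not give the strain in which the floxed allele was made. The neighbours have no common function. They include the insulin receptor, lysosomal and vesicle proteins, a cluster of C-type lectin receptors that immune cells use to recognise sugars, and factors for splicing, transcription and mitochondrial import.

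The next gene above Elavl1 is Ccl25, a chemokine that attracts cells bearing the receptor Ccr9. Its annotated transcription start and that of Elavl1 point away from each other and are separated by 64 bases, shown here because they are all that lies between the annotated starts of these genes. The bases are those of GRCm38.p6 from RefSeq, chr8:4325141-4325204, plus strand, and the capitals mark the 1 CCAAT motif, read on the minus strand. Over both strands, CCAAT occurs in 33.8% of 32851 RefSeq promoter windows of 250 bases, and these 64 bases hold 0 matches to the GC box GGGCGG, the TATA box TATAAA and the E-box CACGTG.
between Elavl1 and Ccl25: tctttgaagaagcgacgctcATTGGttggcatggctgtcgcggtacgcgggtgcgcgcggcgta

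Elavl1, the targeted gene, was measured first. Its log2 level was 8.27, 8.01 and 8.53 on the control arrays and 8.22, 8.17 and 8.27 on the knockout arrays. The groups overlapped, with all 3 knockout values inside the range of the controls. Knockout minus control came to -0.05 on the log2 scale (SE 0.15, 95% confidence interval from -0.39 to 0.29), and its two-sided exact permutation p was 0.7, where 3 arrays against 3 allow no p below 0.1. The sources used here do not place the probeset relative to the floxed exons, so the value does not check the labels.

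The 5 neuronal markers ranged from 8.23 to 12.4 on the log2 scale. Of the 4 liver markers, Alb, which encodes serum albumin, ranged from 3.20 to 3.86, near the array medians of 3.85 to 3.97. Apoa1 ranged from 3.63 to 4.22 and Cyp2e1 from 3.41 to 4.10. Ttr, which is also a choroid plexus marker here, ranged from 12.3 to 12.7. The summed intensity of the 3 oligodendrocyte markers was 722 to 906 in control and 672 to 708 in knockout brain, without overlap. The sums of the other marker lists overlapped between the groups. Of the 3, the myelin genes Opalin (log2 fold change -0.58, SE 0.18) and Mog (-0.19, SE 0.13) were lower on every knockout array. Mbp (0.01, SE 0.11) was not. Of all genes tested, 2.55% were lower in knockout without overlap. None of the 3 passed the adjusted limma threshold, and their part in the neighbours' values was not tested. In both groups the array numbered 3 stood apart: Xist, which coats the inactive X chromosome of female cells, was at 7.69 in control 3 and 7.68 in knockout 3, against 2.52 to 2.79 on the other 4 arrays, and the Y-linked gene Uty was at 2.95 and 3.16 against 7.22 to 7.53. Counts of neighbours with groups apart, at an unadjusted limma p under 0.05 or with a call are given with and without these arrays. So are the log2 fold changes of the neighbours that differ most on them. The other counts of neighbours include these arrays.

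None of the 27 tested neighbours passed the adjusted threshold of 0.05 in limma, and the same held for all 16635 genes tested (0%), with or without same-numbered arrays treated as pairs. Taken as values, 12 neighbours lay above 0 and 15 below, with log2 fold changes from -0.34 for Cd209a to 0.32 for Trappc5. In RNA of whole brain, fewer cells of a type and less RNA per cell cannot be told apart. The median over the neighbours was -0.02, beside 0.01 over all genes tested and 0.02 over the other 840 tested genes of chromosome 8. The median turned positive with arrays centred on their median (0.02), without control 3 (0.05), without knockout 1 (0.02) and without knockout 2 (0.03). Confidence intervals of the neighbours reached a median of 0.33 to either side of the log2 fold change, and 1 gene, Cd209a, had an interval that included a 2-fold difference.

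**Figure D1:**
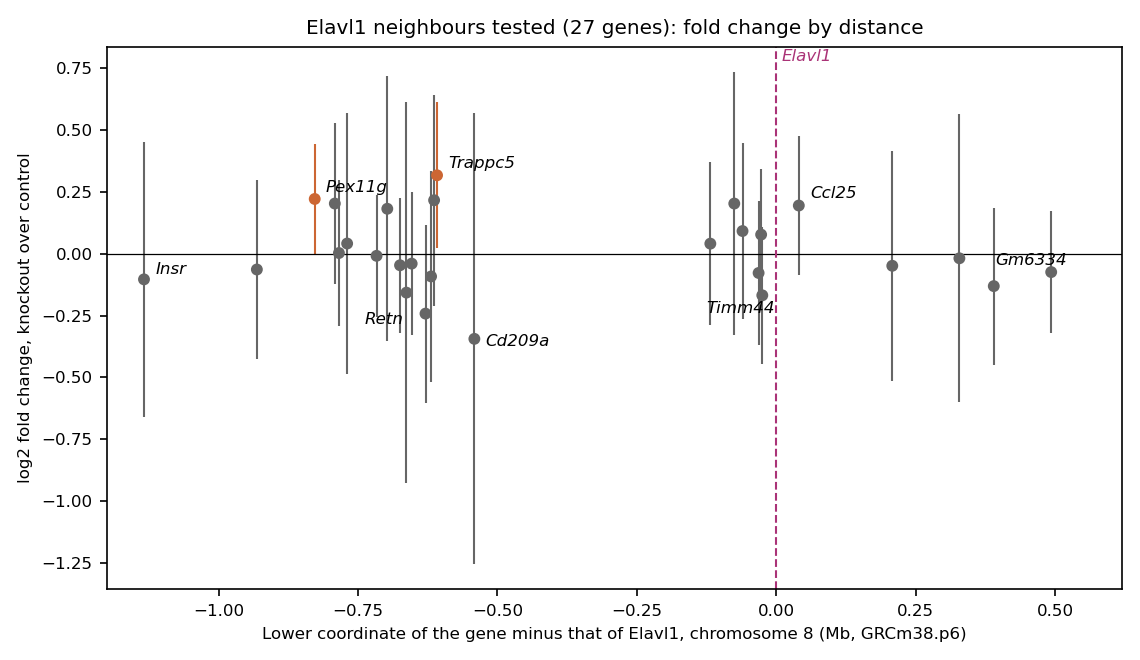
Log2 fold change of knockout over control (y axis) against the distance of each gene's lower coordinate from that of Elavl1 in Mb (x axis) for the 27 tested neighbours; points are estimates, bars are 95% confidence intervals, and orange marks the 2 genes whose groups did not overlap. The intervals of the other 25 genes cross 0, and the dashed line is the position of Elavl1.

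At an unadjusted p under 0.05 in limma there were 2 neighbours of 27, Trappc5 and Pex11g, beside 1.7% of all genes tested. With same-numbered arrays as pairs there were 3, the third being Cd209a, beside 4.85% of all genes. Trappc5 and Pex11g were also the 2 tested neighbours whose groups did not overlap, both higher in knockout brain. Among all genes tested, groups did not overlap in 5.7%, with 3.14% higher and 2.55% lower in knockout. The 2 of 27 neighbours (7.41%) are near that share, above the 1.7% at an unadjusted limma p under 0.05, and give no call. The knockout differed in the same direction in all 3 same-numbered pairs for 9 of 27 neighbours (33.3%), 4 higher and 5 lower. The same held for 25% of all genes tested. Arrays numbered 1 and 2 matched as well across numbers as within them, so which of them form a pair is not settled. With single arrays left out, 4 neighbours were apart without control 1, 10 without control 3 and 5 without knockout 3, where 13.5%, 21.2% and 18.0% of all genes tested were.

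Trappc5, a subunit of the TRAPP complexes that tether vesicles between the endoplasmic reticulum and the Golgi, lies 608 kb below Elavl1. Its log2 level was 5.08, 4.99 and 4.95 on the control arrays and 5.52, 5.31 and 5.14 on the knockout arrays. The lowest knockout value, from the array numbered 3, lay just above the highest control value. The fold of knockout over control was 1.25 with a 95% interval from 1.02 to 1.53 (limma adjusted p = 1.00). The log2 fold change ran from 0.22 to 0.41 over the other settings and was 0.38 without both arrays numbered 3. Its unadjusted p in limma rose above 0.05 in 5 of the 6 fits that left out a single array.

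Pex11g, a membrane protein of the family that controls peroxisome number, lies 828 kb below Elavl1. Its log2 level was 4.07, 4.09 and 4.10 on the control arrays and 4.28, 4.32 and 4.31 on the knockout arrays. The levels within each group were close together (SD 0.017 and 0.018, n = 3 each), in a range just above the array medians where signal is weak. The fold was 1.17 with a 95% interval from 1.00 to 1.36 (limma adjusted p = 1.00). Its unadjusted p in limma was just under 0.05 and rose above it with values as deposited, with arrays centred on their median and with a pseudocount of 16, where the log2 fold change was 0.19, 0.23 and 0.12. It was also above 0.05 in all 6 fits that left out a single array and without both arrays numbered 3.

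Both genes overlap a neighbour in the annotation, Trappc5 sharing 642 bases with the Fc receptor gene Fcer2a and Pex11g sharing 936 bases with Tex45. Fcer2a (3.00 to 3.29 over the 6 arrays) and Tex45 (3.04 to 3.43) were below the brightness limit. The sources used here do not place the probes relative to the shared bases.

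The upstream sequences of these genes are printed because they are the 2 tested neighbours that lay higher on every knockout array. They are the 250 bases before the annotated start, 5′ to 3′ on the gene's strand, from RefSeq on GRCm38.p6: chr8:3676227-3676476 on the plus strand for Trappc5 and chr8:3467649-3467898 on the minus strand for Pex11g. Capitals mark matches on either strand to the GC box, the CCAAT box, the TATA box or the E-box as spelled above.
Trappc5: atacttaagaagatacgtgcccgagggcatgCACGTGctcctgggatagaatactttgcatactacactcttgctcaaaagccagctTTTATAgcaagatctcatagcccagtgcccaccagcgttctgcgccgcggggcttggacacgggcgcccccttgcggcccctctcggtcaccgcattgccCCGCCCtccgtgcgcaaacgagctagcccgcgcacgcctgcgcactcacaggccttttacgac
Pex11g: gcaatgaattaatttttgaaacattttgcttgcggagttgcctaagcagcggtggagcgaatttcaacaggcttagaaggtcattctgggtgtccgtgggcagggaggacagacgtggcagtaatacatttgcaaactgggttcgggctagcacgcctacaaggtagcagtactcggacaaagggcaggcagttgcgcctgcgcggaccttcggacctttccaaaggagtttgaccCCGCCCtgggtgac

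Each of the 2 sequences holds 1 GC box on the strand opposite to the one printed, found in 32.7% of all 32851 promoter windows and in 10 of 32 neighbours with a window. Trappc5 also holds 1 TATA box and 1 E-box, which occur in 12.4% and 6.0% of windows. The sequence of Trappc5 holds 21 CpG dinucleotides and that of Pex11g 13, beside a median of 6 over all windows and 8 over the neighbours. A match describes the letters alone.

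**Figure D2:**
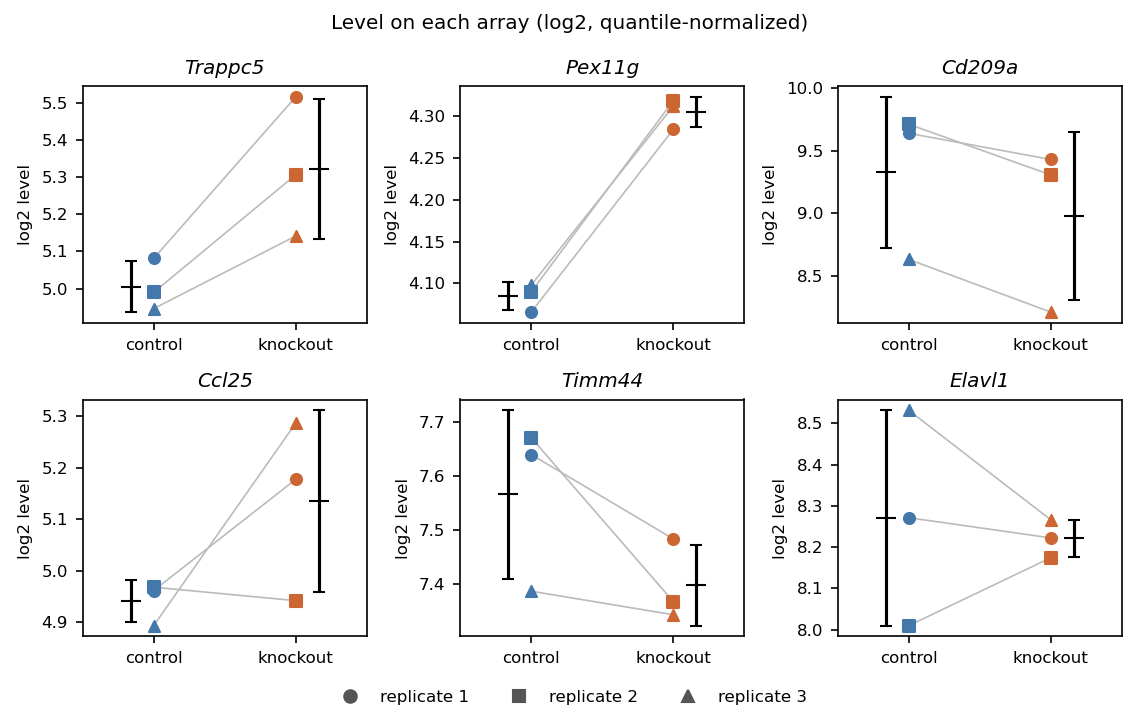
Log2 level after quantile normalization (y axis, a separate scale in each panel) in control and knockout brain for 5 neighbours and Elavl1. Marker shapes give the replicate number, grey lines join same-numbered arrays, and black bars are the mean ± SD of 3 arrays. Groups are apart for Trappc5 and Pex11g and overlap in the other panels.

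The genes that flank Elavl1 most closely were examined next. Timm44, which helps to import proteins into mitochondria, is the next gene below Elavl1 and lies 25.1 kb from it. Its log2 level was 7.64, 7.67 and 7.39 in control and 7.48, 7.37 and 7.34 in knockout brain, and the groups overlapped through control 3. The log2 fold change was -0.17 (SE 0.12, limma adjusted p = 1.00), and it was negative in all 15 alternatives run on it, from -0.26 to -0.10. Ccl25, whose lower coordinate is 40.4 kb above that of Elavl1, was at 4.96, 4.97 and 4.89 in control and 5.18, 4.94 and 5.29 in knockout brain. Knockout 2 lay among the controls and the other 2 knockouts above them, giving a log2 fold change of 0.19 (SE 0.12, limma adjusted p = 1.00). That of Ccl25 was positive in all 15 alternatives, from 0.095 to 0.29.

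The next genes below Timm44 had log2 fold changes smaller than their standard errors in the unpaired fit. Ctxn1, which encodes the neuronal membrane protein cortexin, was at 0.08 (SE 0.11), and Snapc2, a subunit of the complex that starts small nuclear RNA transcription, at -0.08 (SE 0.13). Lrrc8e, a subunit of volume-regulated anion channels, was at 0.09 (SE 0.15). Prr36 was at 0.20 (SE 0.23), and Evi5l, a regulator of Rab GTPases, at 0.04 (SE 0.14). All 5 had overlapping groups. Prr36 was higher in each same-numbered pair, by 0.03, 0.34 and 0.24, with an SE of 0.098 when pairs were a block. Its log2 fold change ran from -0.001 (without knockout 3) and 0.04 (without control 2) to 0.39 (without control 3), and was 0.18 without both arrays numbered 3. The sign turned in 2 of 15 alternatives for Evi5l, in 1 each for Prr36 and Snapc2, and in none for Ctxn1 and Lrrc8e. Above Ccl25, the ceramide synthase gene Cers4 was at -0.05 (SE 0.20), with its sign turned in 4 of 15 alternatives. Without both arrays numbered 3 it was at -0.11. The zinc finger gene Zfp958 was at -0.02 (SE 0.25), and its sign turned in 6 of 15 alternatives. The long noncoding Gm6410 was at -0.13 (SE 0.14), and the pseudogene Gm6334, whose letters lie within the gene Shcbp1, at -0.07 (SE 0.11).

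Across the tested neighbours the correlations of the values with distance from Elavl1 were near 0. The absolute values were nevertheless larger from 0.5 to 1 Mb away than under 0.5 Mb, a difference that was not tested. The 11 tested neighbours under 0.5 Mb away had a median log2 fold change of -0.02 and a median absolute value of 0.078, and 0 of them had groups apart. The 15 neighbours from 0.5 to 1 Mb away had a median of -0.01 and a median absolute value of 0.16, and both genes with groups apart were among them. The 1 gene further off, Insr, was at -0.10. Across the 27 genes the absolute log2 fold change and the distance had a Spearman correlation of -0.06 and a Pearson correlation of 0.03, a description over genes that share the same 6 arrays.

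The sizes of the values were set beside those of other genes. The neighbours' median absolute log2 fold change was 0.092, beside 0.075 over all genes tested, 0.074 over the rest of chromosome 8 and 0.051 over the 62 tested genes from 8 to 20 Mb of the same chromosome. An absolute value above 0.2, a limit chosen after the values were seen, was found in 7 of 27 neighbours (25.9%) and in 11.7% of all genes tested. Zfp358 and Prr36 lay just above that limit, at 0.2026 and 0.2025, so the count depends on it. By distance it was found in 1 of 11 neighbours under 0.5 Mb away (9.09%) and in 6 of 15 from 0.5 to 1 Mb away (40%). The 7 genes were Trappc5, Pex11g, Zfp358, Fcor and Prr36 above 0 and Cd209a and Retn below it. Their standard errors ran from 0.094 for Pex11g to 0.39 for Cd209a, and only Trappc5 and Pex11g had a 95% interval that left out 0. No test of the neighbours as a list was made. The last neighbour on the array below the 8.0 Mb limit was Slc10a2, the ileal bile acid transporter, with control and knockout means of 2.66 and 2.61 and below the brightness limit. The first gene beyond the limit was Efnb2, an ephrin ligand that guides axons and vessels, at a log2 fold change of 0.03.

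**Figure D3:**
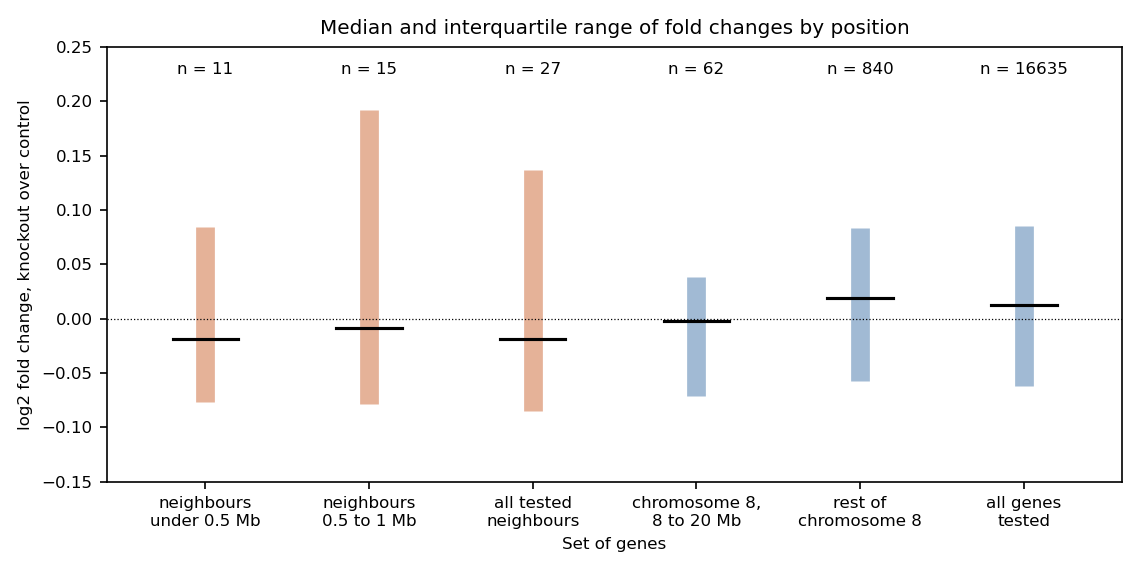
Median (black line) and interquartile range (coloured bar, 25th to 75th percentile) of log2 fold changes of knockout over control (y axis) for sets of genes by position (x axis), with the number of genes tested above each bar. All 6 medians lie between -0.02 and 0.02, and the bar is tallest for the 15 neighbours 0.5 to 1 Mb from Elavl1.

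By role, the lysosome, lipid and membrane traffic genes were the largest list, with 8 of 9 members tested. Of these, 6 lay above 0 and 2 below, with a median of 0.04, and 0 passed the adjusted threshold. Mcoln1, the lysosomal cation channel mutated in mucolipidosis, had a log2 fold change of 0.00 (SE 0.13). Cers4 is given above, and the phospholipase Pnpla6, also called neuropathy target esterase, was at 0.04 (SE 0.23). Stxbp2, a Munc18 protein that acts in granule release, was at -0.04 (SE 0.12). The list named kinase, GTPase and cytoskeleton genes had 4 of 5 members tested, 3 above 0, with a median of 0.13. The kinase on it, Map2k7, was not analysed here. Ctxn1 and Prr36 are among the 3 above 0, so the count describes the list and not those roles. The list includes the microtubule minus-end protein Camsap3 at 0.18 (SE 0.23), which was higher in each same-numbered pair (SE 0.090 with pairs as a block). Set against knockout 2, which matched control 1 as well as knockout 1 did, Camsap3 was not higher: 5.79 in control 1 and 5.74 in knockout 2.

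Among DNA, RNA and mitochondrial genes 6 of 7 were tested, and 5 lay below 0, with a median of -0.06. Xab2, which acts in splicing and in transcription-coupled repair, was at -0.05 (SE 0.12), Pet100 was at -0.16 (SE 0.33), lower in each pair (SE 0.089 with pairs as a block), and Zfp358 was the 1 member above 0, at 0.20 (SE 0.14). All 3 genes of the insulin and hormone signalling list, which also holds the chemokine gene Ccl25, were tested. Insr, the insulin receptor, was at 6.33, 6.40 and 6.998 in control and 6.18, 6.35 and 6.88 in knockout brain, with a fold of 0.931 (95% interval from 0.633 to 1.37). The fat-cell hormone resistin, Retn, was at -0.24 (SE 0.15), and Ccl25 is given above. The 5 tested genes in no list ran from -0.13 for Gm6410 to 0.22 for Fcor, a corepressor of Foxo1, with 4 below 0, among them Rps23rg1 at -0.01 and Mcemp1 at -0.09. Beside these counts, 54.8% of all genes tested lay above 0.

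The C-type lectin and Fc receptor cluster lies from 0.15 to 0.60 Mb below Elavl1. The cells that make receptors of these families include dendritic cells, macrophages and B cells. Of its 8 members, 7 were below the brightness limit: Cd209b, Cd209c, Cd209d, Cd209e, Cd209g, Clec4g and Fcer2a. Cd209a, a mouse homologue of DC-SIGN, was the 1 member tested, at 9.64, 9.71 and 8.63 in control and 9.43, 9.30 and 8.21 in knockout brain. Both arrays numbered 3 were about 1 unit lower than the other 4, and the groups overlapped. The log2 fold change was -0.34 (SE 0.39, limma adjusted p = 1.00) and was -0.31 without both arrays numbered 3. With single arrays left out it ran from -0.69 without control 3 to 0.04 without knockout 3, where its sign turned. Omitting control 2 gave -0.15, omitting knockout 1 gave -0.57 and omitting knockout 2 gave -0.51. In each same-numbered pair the knockout was lower, by a log2 difference of -0.21, -0.40 and -0.42, and with pairs as a block Cd209a had an unadjusted p under 0.05 and a limma adjusted p of 0.984. Cd209a is read by 2 probesets, and they disagree. The dimmer one was at 4.09, 3.49 and 3.59 in control and 3.94, 4.05 and 3.54 in knockout brain, a log2 difference of 0.12, so the 2 probesets differ in sign, and which of them reads Cd209a mRNA was not tested. With the mean over probesets the log2 fold change was -0.11.

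The markers of macrophages that line brain vessels, cells known to carry lectin receptors, were also examined. Of the 4 markers, Mrc1 ranged from 4.10 to 5.40 and Cd163 from 4.09 to 4.17 over the 6 arrays. Lyve1 ranged from 4.07 to 5.19 and Pf4 from 3.05 to 3.88. On single arrays Pf4 lay below 3.28, the brightness limit set on mean levels. The summed intensity of the 4 was 57.3 to 76.2 in control and 62.4 to 104 in knockout brain, so the groups overlapped. Their part in the lectin values was not tested.

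The 11 neighbours below the brightness limit, a mean log2 level of 3.28, lay between 2.36 and 3.59 on single arrays. They are Tex45, Shcbp1, Slc10a2, the pseudogene Gm9457 and the 7 lectin and Fc receptor genes. Differences between group means ran from -0.09 to 0.21 on the log2 scale. Groups did not overlap in 10.1% of the 5545 genes below the limit and in 1 of these 11, Shcbp1, an adaptor protein of dividing cells, at 3.09, 3.00 and 3.10 in control and 3.14, 3.20 and 3.28 in knockout brain. These genes did not enter the fit reported here, and at this brightness their values give no direction.

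The widest variation among the neighbours followed the array number and not the genotype. In 13 of the 27 tested genes both arrays numbered 3 lay outside the range of the other 4, 10 above and 3 below. This share of 48.1% is close to the 44% of all genes tested that did the same. Insr was at 6.998 and 6.88 on the arrays numbered 3 and between 6.18 and 6.40 on the others. Pet100, an assembly factor of cytochrome c oxidase, was lower there, at 6.28 and 6.08 against 7.004 to 7.24. Pnpla6, Camsap3 and Prr36 were higher there by 0.58, 0.57 and 0.58 on the log2 scale. With both arrays numbered 3 left out, Insr had a log2 fold change of -0.10, Pet100 of -0.14, Pnpla6 of 0.13 and Camsap3 of 0.17. The pattern moves with Xist and the Y-linked genes, and also with markers that are not sex-linked. The neuronal marker Snap25 was at 12.40 on both arrays numbered 3 against 11.45 to 11.57 on the others. The microglial marker P2ry12 was at 7.10 and 7.07 against 7.70 to 8.05. For the neuronal marker Map2 and the microglial marker Aif1, the arrays numbered 3 were not both outside the range of the others. The part of sex or of these cell types in the pattern was not tested.

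**Figure D4:**
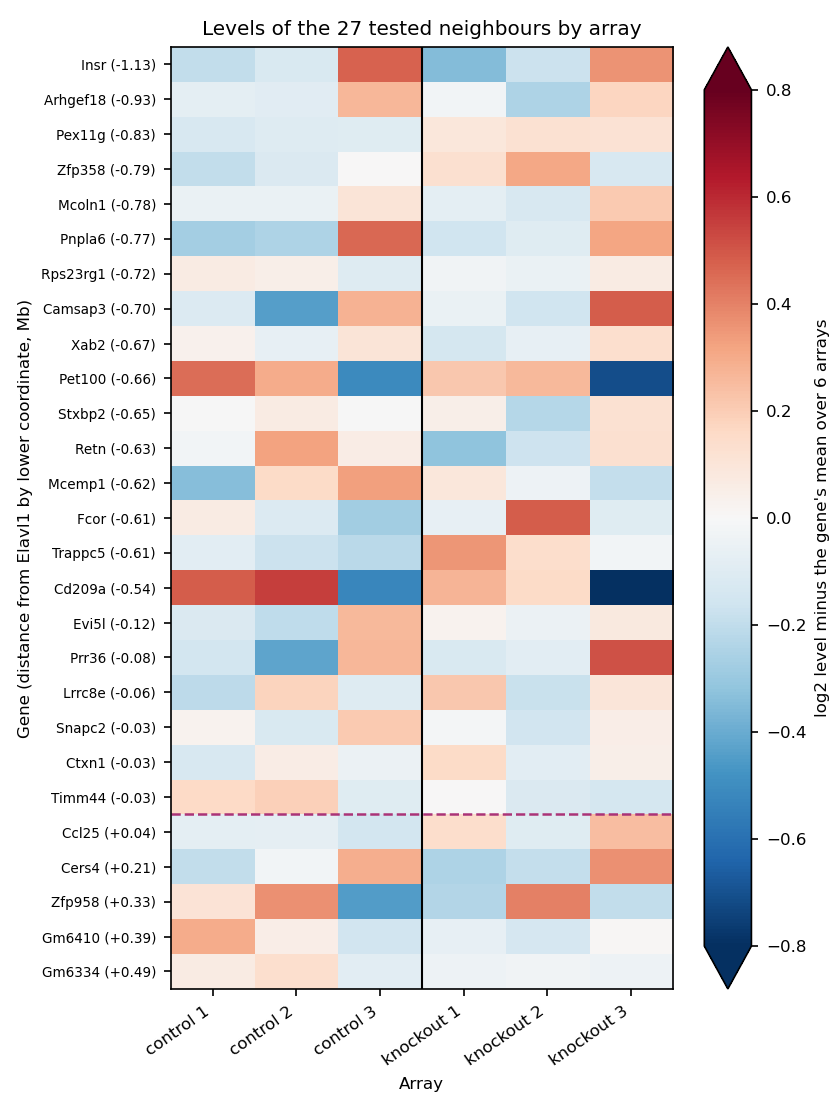
Log2 level minus each gene's mean over the 6 arrays (colour, capped at 0.8 in either direction) for the 27 tested neighbours (rows, ordered by position with the distance from Elavl1 in Mb) on each array (columns). The dashed line is the position of Elavl1 and the black line parts the groups. Both columns numbered 3 share the strong colours of genes such as Insr, Pnpla6, Pet100 and Cd209a. Pex11g is a pale red on all 3 knockout arrays. Trappc5 is red on knockout 1, pale red on knockout 2 and near white on knockout 3.

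Taken over the neighbours, no array stood out by genotype. The median deviation from a gene's own mean was -0.077, -0.052 and -0.004 on the control arrays and -0.020, -0.086 and 0.077 on the knockout arrays. The groups overlapped, and the highest value came from knockout 3. Without both arrays numbered 3 the groups were apart in 14 of 27 neighbours, where 34.7% of all genes tested were, and 4 neighbours had an unadjusted limma p under 0.05, beside 5.13% of all genes. None passed the adjusted threshold in that comparison. Its 2 arrays a group separate more easily by construction, for all genes as for the neighbours. The difference between the neighbours' counts and the shares of all genes was not tested.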

How the data were processed

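The authors deposited linear intensity values for 41340 probesets on 6 arrays, with MAS5 named per the submitters' processing notes and no version. The sources used here give no background correction, scaling or filter. The scale used was log2(intensity + 1), which understates changes of dim genes, and arrays were quantile-normalized because array medians differed by 0.12 (limit 0.1). GEO's platform annotation listed 25335 probesets, 23521 with a single symbol, giving 22180 genes with the probeset of the highest mean each. The dimmest 25% by mean level (5545 genes) were dropped, so 16635 were tested. Of all genes, 21994 matched RefSeq by gene identifier (GRCm38.p6), which gave positions, and 0 symbols differed. Distances run between the lower annotated coordinates of both genes. No value column was unused. Arrays carry no count, so their number (3 per group) limits precision.

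Groups were compared with limma 3.58.1 (two-sided, Benjamini-Hochberg threshold 0.05) in R 4.3.3, after a test on simulated data. Plots used matplotlib 3.10.9 in Python 3.11.15. Same-numbered arrays deviated together (correlations 0.31, 0.37 and 0.75, all above 0.1), so numbers were taken as pairs from this check; arrays 1 and 2 matched as well across numbers (control 1 with knockout 2 at 0.40, control 2 with knockout 1 at 0.37), so the check sets apart the arrays numbered 3 alone. Neighbours, role lists, tests and alternatives were chosen with earlier results of these data known. Named were Elavl1, up to 6 tested neighbours nearest on each side, those with groups apart or an unadjusted p under 0.05, the 5 brightest, and the 2 brightest of each role list; Camsap3, Pnpla6, Pet100, Retn, Zfp358, Fcor, Stxbp2, Rps23rg1, Mcemp1, Efnb2 and the dim neighbours were named after their values were seen. The value of 1 neighbour that this rule names is not reported here in the text.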

Additional observations from a re-analysis of the deposited data

How the results depend on the processing

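No setting gave a call at the adjusted threshold, among the 27 neighbours or all genes. The Elavl1 value of -0.05 turned to 0.0143 with arrays centred on their median, 0.0579 without both arrays numbered 3 and 0.0252 when arrays were weighted, and ran from -0.18 to 0.0805 when single arrays were left out; the cause was not tested. The neighbours' median of -0.019 ran from -0.0271 to 0.0548 (without control 3) in the same way, and was -0.049 without both arrays numbered 3 and -0.0406 with array weights. The count of 2 neighbours with an unadjusted p under 0.05 was 1 with values as deposited, with arrays centred, with a pseudocount of 16 and in the upper 50% of genes, where 21 neighbours are tested (beside 1.53%, 1.45%, 1.29% and 0.794% of all genes tested there), 4 with array weights (beside 4.54%), 4 with the pair of arrays numbered 3 left out (beside 5.13%), and ran from 0 (without control 1, 2 or 3 or knockout 1 or 2) to 3 (without knockout 3). The shares of all genes at that p with single arrays left out are not given here, so the range from 0 to 3 has no background. The count of 2 with groups apart was 14 without both arrays numbered 3, where 34.7% of all genes tested were apart. It was 1 in the upper 50% of genes, for which the share of all genes is not given here. With single arrays left out the count ran from 2 to 10. It was 4 without control 1, 10 without control 3 and 5 without knockout 3, where 13.5%, 21.2% and 18.0% of all genes were apart. Fewer arrays separate more easily, for all genes as for the neighbours, and the difference between these counts and shares was not tested. With the replicate number as a block, 3 neighbours (Trappc5, Pex11g and Cd209a) had an unadjusted limma p under 0.05, beside 4.85% of all genes (806, against 282 without it), and the block changed no call. A window of 2 Mb on either side held the same 38 genes. Of 18 named neighbours, 8 kept their sign in every alternative run. Signal limits the 11 dim neighbours.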
